A study of Mus musculus with 20 samples.

Results

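Senescence and p53 target genes were followed in the liver and kidney of mice given 7c, a cocktail of small molecules used for partial chemical reprogramming, or its solvent. The members were taken by gene symbol: the cell cycle inhibitors Cdkn1a, Cdkn2a and Cdkn2b, and the p53-linked genes Ccng1, Mdm2, Gdf15, Trp53inp1, Eda2r, Phlda3 and Sesn2. All 10 symbols matched an Ensembl identifier, out of 57010 genes counted. The mice were male UM-HET3, a genetically heterogeneous stock from a cross of several inbred strains, and 12 months old. The 7c group (n = 6) received repsox, tranylcypromine, DZNep, CHIR99021, forskolin and TTNPB at 0.1 mg/kg/day each and valproate at 1 mg/kg/day, and the vehicle group (n = 4) received 50% DMSO with 50% PEG300, both for 28 days from osmotic minipumps under the skin. Each mouse group gave liver and kidney mRNA libraries, 20 in all, and no group of untreated or young mice is used here, so the members' change with age was not measured.

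p53, encoded by Trp53, is a transcription factor that is stabilized after DNA damage and other stresses and then binds a pair of decamer half-sites near its target genes. Its targets include Cdkn1a, which halts the cell cycle, and Mdm2, which ubiquitinates p53 and closes a negative feedback loop. Cellular senescence is a lasting exit from the cell cycle held by p21 from Cdkn1a and p16Ink4a from Cdkn2a, and senescent cells release a secretory mix of cytokines, proteases and growth factor binding proteins. In liver and kidney, senescence is known from aging and injury, and the cells concerned are often a small share of the tissue. In whole-tissue RNA, fewer cells of a type and less RNA per cell cannot be told apart.

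Depth ranged from 28383359 to 34153084 counts in liver and from 27855849 to 64872451 in kidney, and every 7c liver library was smaller than every vehicle liver library. The tissue labels held, with all 8 hepatocyte markers higher in vehicle liver and all 8 proximal tubule markers higher in vehicle kidney (edgeR's quasi-likelihood test, Benjamini-Hochberg adjusted p under 0.05). Markers of other tissues or of blood stood apart in the livers of 7c replicates 5 and 6 and in the kidneys. The summed level of 6 red cell markers was 393 to 1269 CPM (counts scaled to library size) in 7c livers, highest in replicate 5, and 428 to 577 CPM in vehicle livers. In kidney it was 506 to 2291 CPM in 7c and 342 to 1342 CPM in vehicle mice. The summed level of 8 skeletal muscle markers was 645 CPM in liver of 7c replicate 6, against 0.515 to 1.28 CPM in the vehicle livers. The summed level of 8 adipocyte markers was 219 to 405 CPM in 7c kidneys and 155 to 269 CPM in vehicle kidneys, and 7 of the 8 had an unadjusted p under 0.05. The summed level of the 8 hepatocyte markers was 2162 to 2962 CPM in 7c kidneys and 2561 to 3025 CPM in vehicle kidneys. Their log2 fold changes in kidney, 7c over vehicle, ran from -2.99 to 0.17 with a median of -0.57 and 1 of 8 above 0, and 3 had an unadjusted p under 0.05. The kidney of 7c replicate 5 held the highest value of 20.7% of all genes tested in kidney.

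The window of 250 bases before the canonical start (GENCODE vM39, GRCm39) was searched in 9 of the members for the p53 half-site consensus, allowing no mismatch. The consensus reads as itself on the opposite strand, so 1 search covered both strands. Of the 9 windows, 2 held a half-site, compared with 1224 of the 18515 windows of genes tested in either tissue (6.61%). A match is a description of letters and not a measured p53 site, and a window without one says nothing about sites elsewhere in the gene. The windows of Mdm2 (chr10:117546664-117546913, minus strand) and Trp53inp1 (chr4:11156162-11156411, plus strand) are shown because they are the 2 with a match, which is in capitals, and each is read 5′ to 3′ on the gene's strand up to the base before the start.
Mdm2: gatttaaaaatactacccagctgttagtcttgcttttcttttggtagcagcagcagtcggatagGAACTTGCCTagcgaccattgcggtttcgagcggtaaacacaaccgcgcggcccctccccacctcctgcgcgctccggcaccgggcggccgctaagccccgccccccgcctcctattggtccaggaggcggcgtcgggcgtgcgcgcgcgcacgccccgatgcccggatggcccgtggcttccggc
Trp53inp1: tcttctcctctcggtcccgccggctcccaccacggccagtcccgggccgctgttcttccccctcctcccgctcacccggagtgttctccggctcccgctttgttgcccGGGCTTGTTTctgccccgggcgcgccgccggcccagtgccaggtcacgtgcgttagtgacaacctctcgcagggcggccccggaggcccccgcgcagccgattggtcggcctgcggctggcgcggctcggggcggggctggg
The half-site spans bases 186 to 177 before the start in Mdm2 and 142 to 133 in Trp53inp1. These 2 genes had mean levels of 2.16 RPKM or more in every group, where RPKM is the count scaled for exon length and library size. Gdf15, with no half-site in its window, also did.

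The first question was whether 7c changed the members in liver. No member passed the test. Cdkn2a and Cdkn2b were too low to enter the fit, and 0 of the 8 members tested passed an adjusted p of 0.05 (edgeR's quasi-likelihood test), against 0.00666% of all 15012 genes, a background of 1 gene, Zfp949. Before adjustment 1 of the 8, Eda2r, had p under 0.05, compared with 3.76% of all genes, and since Eda2r entered the fit through its 7c livers, as described with its counts, that count supports nothing about the members. DESeq2 and the likelihood ratio test also called 0 members. The fitted log2 fold change was above 0 in 5 of 8 members, with a median of 0.19 beside 0.0017 over all genes. In no member did the 7c and vehicle livers separate without overlap, a pattern that 0.719% of all genes showed.

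**Figure D1:**
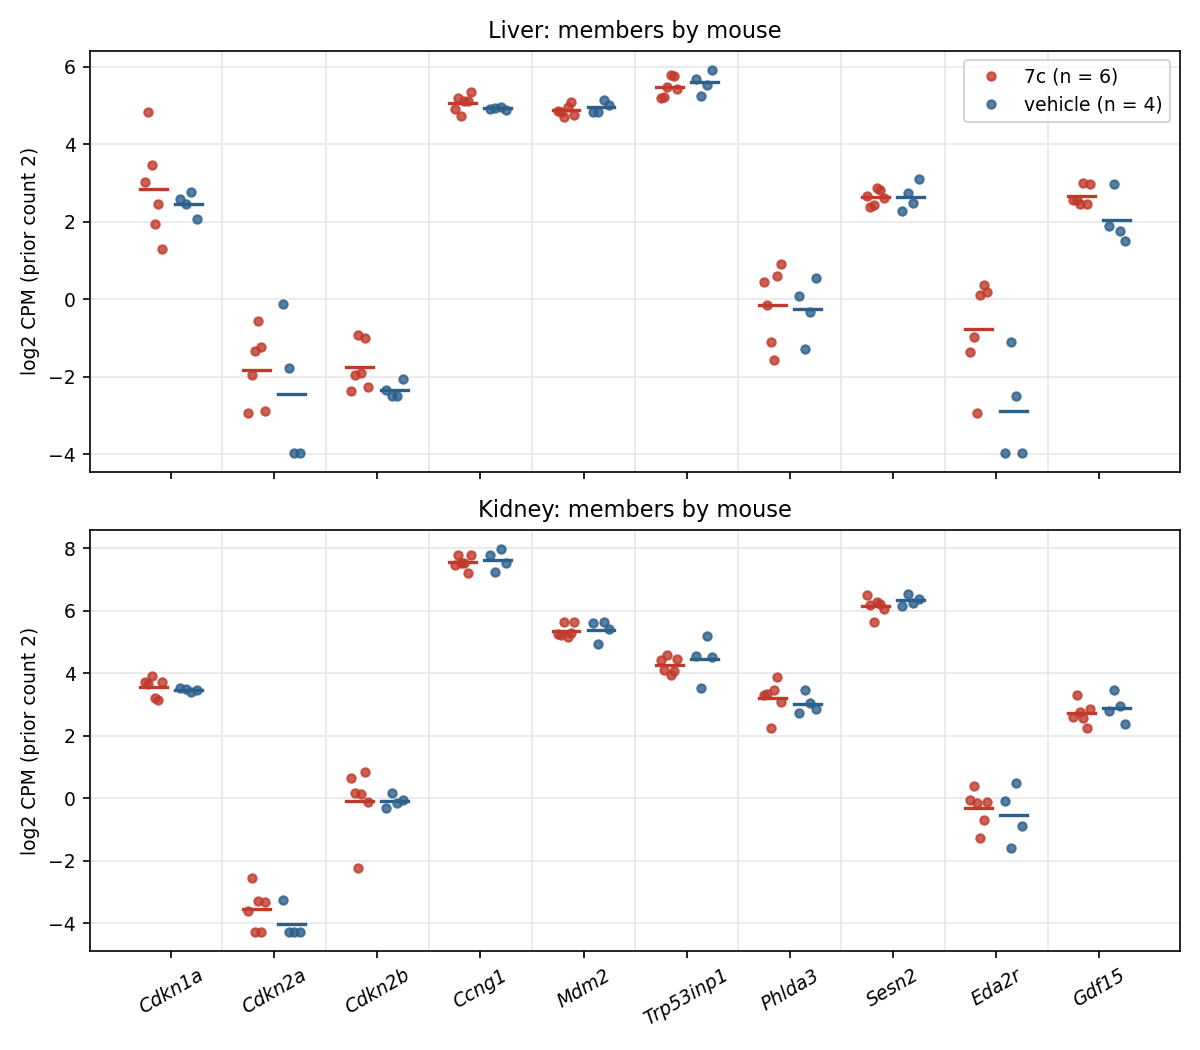
Log2 CPM (prior count 2) of each member in every mouse, liver above and kidney below. Points are mice, red for 7c (n = 6) and blue for vehicle (n = 4), and bars are group means. The groups overlap for every member in both tissues, and Cdkn1a, Eda2r and Cdkn2a spread most in liver.

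Cdkn1a encodes p21, the CDK inhibitor through which p53 arrests the cell cycle (chr17:29309936-29319701, plus strand). In the 7c livers its level had a lowest value of 2.38 CPM, a median of 6.80 CPM and a highest of 28.5 CPM. The vehicle livers held 5.93, 5.41, 6.73 and 4.15 CPM. Replicates 1, 2 and 3 of 7c, at 8.15, 28.5 and 10.95 CPM, lay above every vehicle liver, whereas replicates 4 and 6, at 3.76 and 2.38 CPM, lay below every one and replicate 5 lay among them. The range over the 7c group was 12.0-fold and that over the vehicle group was 1.62-fold. The fitted difference was 0.83 on the log2 scale (SE 0.54, unadjusted p = 0.150, adjusted p = 1.00 by edgeR). Without 7c replicate 2, which held 887 counts of Cdkn1a, the difference was 0.14.

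That high library did not stand out in the other members. In liver of 7c replicate 2, Cdkn1a was the only tested member, 1 of 8, at its highest of the 10 livers, and 0 were at their lowest. Of the other p53 target genes, 5 of 24 (20.8%) were at their highest in that liver and 2 at their lowest, compared with 11.3% of all genes tested at their highest. Liver of vehicle replicate 3 held the same number of them at their highest, 5 of 24, beside 11.5% of all genes.

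Eda2r encodes a receptor for ectodysplasin A2 of the tumor necrosis factor receptor family and is induced by p53 (chrX:96320270-96420847, minus strand). Its liver counts were 10, 14, 2, 30, 34 and 30 in 7c replicates 1 to 6 and 0, 14, 4 and 0 in vehicle replicates 1 to 4. The counts of 30 and above belonged to 7c replicates 4, 5 and 6, the livers with the lowest Cdkn1a of that group, and by CPM 4 of the 6 7c livers were above all vehicle livers, replicate 2 of 7c at 0.450 against 0.401 CPM on equal counts of 14. The filter asked for 10 or more counts in 5 of the 10 livers, which 5 7c livers reached but only 1 vehicle liver, so Eda2r entered the fit through the group where it was high. A count of 0 allows a level of up to 0.0876 to 0.0988 CPM in those libraries (3 counts, counting error only), if each count is an independent event. Most low counts were even, and if counts come in pairs the limit is higher. The fitted log2 fold change was 2.37 (SE 1.02, unadjusted p = 0.0368, adjusted p = 1.00 by edgeR), and an exact permutation test over the 210 splits of 6 against 4 mice gave a two-sided p of 0.0429. Without vehicle replicate 2, the vehicle liver with 14 counts, the log2 fold change was 4.01, and without 7c replicate 6, the liver with muscle markers, it was 2.20.

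Gdf15 encodes a circulating stress cytokine that acts on the hindbrain receptor GFRAL and is induced by p53 and by the integrated stress response (chr8:71082038-71091537, minus strand). The 7c livers ranged from 5.41 to 7.99 CPM with a median of 5.84 CPM. The vehicle livers held 3.62, 7.87, 3.35 and 2.77 CPM. All 6 7c livers were above vehicle replicates 1, 3 and 4, and vehicle replicate 2 was above 5 of the 6 7c livers. The log2 fold change was 0.54 (SE 0.28, unadjusted p = 0.0767, adjusted p = 1.00 by edgeR), or 0.98 without vehicle replicate 2. The exact permutation test gave p = 0.0476.

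**Figure D2:**
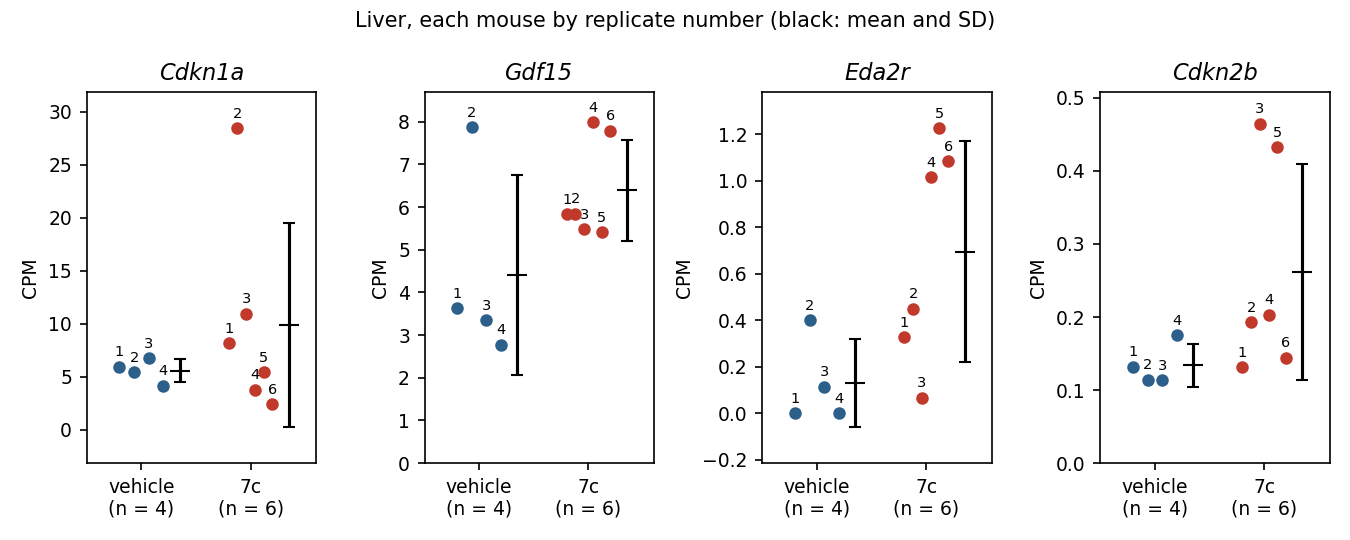
CPM of Cdkn1a, Gdf15, Eda2r and Cdkn2b in each liver, on linear axes that differ between panels, with the replicate number above each point and the group mean and SD in black. Cdkn1a of 7c replicate 2 (28.5 CPM) and Gdf15 of vehicle replicate 2 (7.87 CPM) lie far from the rest of their groups.

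Each member was also tested on its own, whether or not it entered the fit, which made 20 exact permutation tests over both tissues. The smallest p that 6 against 4 mice allow is 0.00476. The Gdf15 and Eda2r tests in liver were the only 2 with an unadjusted p under 0.05, and neither was adjusted for the 20 tests. By the same test, 4.11% of all genes in liver and 3.23% in kidney had an exact permutation p under 0.05. With 1 mouse left out, which also leaves fewer splits, the Gdf15 difference in mean log2 CPM stayed between 0.46 and 0.95 (0.63 with all mice) and its exact permutation p lay between 0.0119 and 0.155, under 0.05 only without vehicle replicate 2. The Eda2r difference stayed between 1.75 and 2.698 (2.12 with all mice) and its exact permutation p lay between 0.0159 and 0.107, under 0.05 without 7c replicate 3, vehicle replicate 2 or vehicle replicate 3. Scaled to total counts without TMM, the exact permutation p was 0.0667 for Gdf15 and 0.0429 for Eda2r.

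The inhibitors of the INK4 family were near the limit of detection in liver. Cdkn2a encodes p16Ink4a and, from another reading frame, p19Arf, which frees p53 from Mdm2, and counts per gene do not separate them. Its counts were 2, 6, 10, 18, 10 and 2 in the 7c livers and 26, 8, 0 and 0 in the vehicle livers, so its highest value was in a vehicle mouse and the groups overlapped (exact permutation p = 0.524). Cdkn2b, which encodes p15Ink4b, had 4, 6, 14, 6, 12 and 4 counts in the 7c livers and 4, 4, 4 and 6 in the vehicle livers (exact permutation p = 0.110). By CPM, 4 of 6 7c livers lay above all vehicle livers for Cdkn2b, on counts of 14 or fewer.

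The other 5 members had overlapping ranges in liver and small fitted differences. Mdm2 held 26.2 to 34.0 CPM in 7c and 28.4 to 35.4 CPM in vehicle livers (log2 fold change -0.09, SE 0.11). With 1 mouse left out its log2 fold change ranged from -0.13 to -0.015. Ccng1, encoding cyclin G1, which recruits the phosphatase PP2A to Mdm2, held 26.7 to 41.0 CPM in 7c and 29.5 to 31.1 CPM in vehicle livers (log2 fold change 0.16, SE 0.11). The vehicle group was therefore narrow for Ccng1, with 4 of the 7c livers above it and 1 below. Without 7c replicate 6, the liver with muscle markers, the Ccng1 log2 fold change was 0.10. With the replicate number as a block it was 0.066, an estimate that rests on replicates 1 to 4 of each group, without 7c replicates 5 and 6.

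Trp53inp1, whose nuclear product promotes p53 activity and autophagy, ranged from 36.9 to 55.4 CPM in 7c and from 37.8 to 60.6 CPM in vehicle livers (log2 fold change -0.12, SE 0.15). With 1 mouse left out its log2 fold change ranged from -0.23 to -0.0048. Sesn2, a leucine sensor that restrains mTORC1, ranged from 5.17 to 7.21 CPM in 7c and from 4.81 to 8.50 CPM in vehicle livers (log2 fold change -0.04, SE 0.19). Phlda3, a PH-domain repressor of AKT, had 8 to 50 counts in 7c and 12 to 48 in vehicle livers (log2 fold change 0.22, SE 0.56). For these genes the difference was smaller than its SE.

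In kidney the same question gave the same count. Of the 9 members tested, 0 passed an adjusted p of 0.05 (edgeR's quasi-likelihood test), where the background was 0% of 17749 genes, and 0 of the 9 had an unadjusted p under 0.05, compared with 2.61% of all genes. DESeq2 called 18 genes and the likelihood ratio test 14, of which 0 were members. The log2 fold change was above 0 in 4 of 9 members, with a median of -0.04 beside -0.0057 over all genes. Again no member separated the groups without overlap, which 0.716% of all genes did. The adipocyte markers (8 of 8 log2 fold changes above 0, median 2.13) and the hepatocyte markers (1 of 8 above 0, median -0.57) of the same kidneys stand beside these values, and their part in them was not tested.

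Cdkn1a in kidney ranged from 8.82 to 14.9 CPM in the 7c group, with a median of 12.7 CPM. The vehicle kidneys held 11.4, 11.2, 10.4 and 10.95 CPM. The 7c kidneys straddled the narrow vehicle range, 4 above it and 2 below it, and the log2 fold change was 0.12 (SE 0.16). With 1 mouse left out the log2 fold change ranged from 0.043 to 0.19. The 7c replicate 2 kidney, from the number whose liver was highest, held 12.5 CPM, near the group median.

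Sesn2 held 49.7 to 90.2 CPM in 7c and 70.4 to 92.9 CPM in vehicle kidneys, a log2 fold change of -0.17 (SE 0.15). Trp53inp1 held 15.4 to 24.1 CPM in 7c and 11.6 to 36.1 CPM in vehicle kidneys, a log2 fold change of -0.27 (SE 0.25), so the vehicle range contained the 7c range. Phlda3, at 4.70 to 14.6 CPM in 7c and 6.53 to 10.99 CPM in vehicle kidneys, had a log2 fold change of 0.25 (SE 0.26), or 0.075 with the replicate block. The block estimate rests on replicates 1 to 4 of each group, without 7c replicate 5, the highest at 14.6 CPM. With 1 mouse left out the Phlda3 log2 fold change ranged from 0.098 (without 7c replicate 5) to 0.43 (without vehicle replicate 2). All 3 differences were close to their SE, and the unadjusted p was 0.276 or more.

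Gdf15 in kidney held 4.72 to 9.89 CPM in 7c and 5.16 to 11.1 CPM in vehicle mice, a log2 fold change of -0.19 (SE 0.24), of the opposite sign to liver. Without vehicle replicate 2 the kidney value was 0.045, of the same sign as liver. Ccng1 held 146 to 221 CPM in 7c and 151 to 251 CPM in vehicle kidneys (log2 fold change -0.09, SE 0.16). Mdm2 held 35.5 to 49.7 CPM in 7c and 30.5 to 49.3 CPM in vehicle kidneys (log2 fold change -0.04, SE 0.16). Both p53-linked cell cycle genes therefore lay within overlapping ranges.

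The low members of kidney were Cdkn2b, Eda2r and Cdkn2a. Cdkn2b had 100, 36, 6, 40, 56 and 36 counts in 7c kidneys and 29, 38, 32 and 26 in vehicle kidneys, and its 7c range of 0.160 to 1.75 CPM spanned the vehicle range of 0.758 to 1.06 CPM on both sides (log2 fold change 0.26, SE 0.48). With 1 mouse left out the fitted value ranged from 0.066 to 0.48, and the difference in mean log2 CPM was -0.0062 (exact permutation p = 0.990). Eda2r had 14 to 60 counts in 7c and 10 to 50 in vehicle kidneys (log2 fold change 0.09, SE 0.47). Cdkn2a was at 0 in 5 of the 10 kidneys and at 2 or 4 counts in the others. A count of 0 allows up to 0.0801 to 0.105 CPM there, or more if counts come in pairs.

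**Figure D3:**
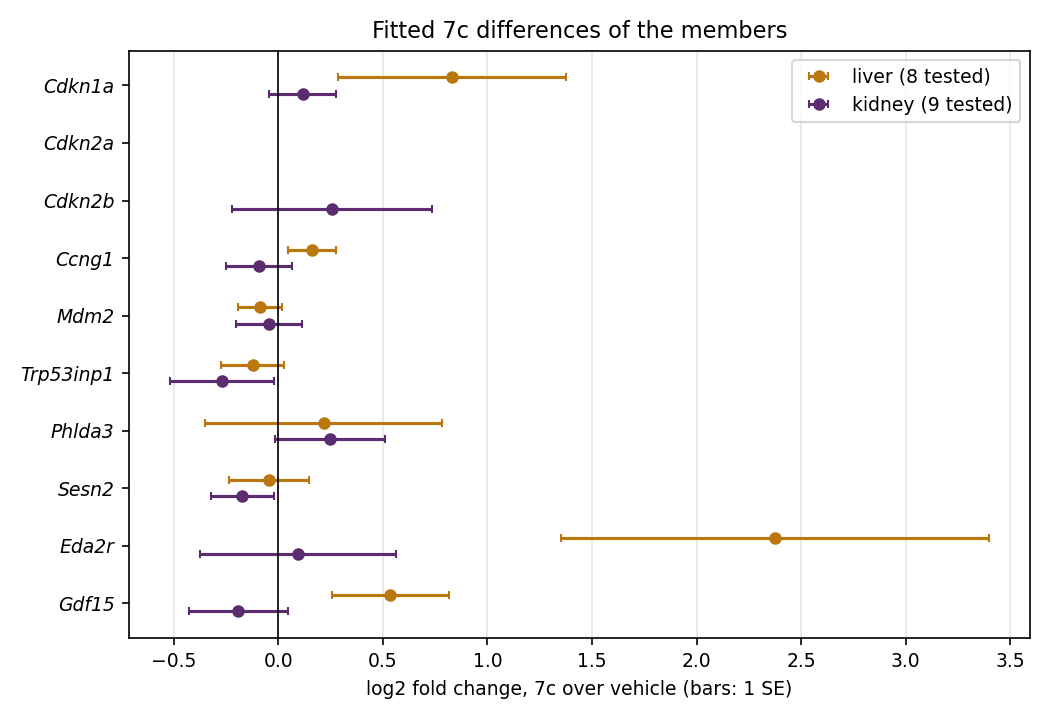
Log2 fold change of 7c over vehicle from edgeR's fit, with bars of 1 SE, for the 8 members tested in liver (orange) and the 9 tested in kidney (purple). Eda2r in liver lies at 2.37 with an SE of 1.02, and the kidney values lie between -0.27 and 0.26.

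Whether the response differed between the tissues was tested as a treatment by tissue interaction over the 20 libraries. That fit treated the libraries as separate, with no mouse term, though liver and kidney of the same number may share a mouse. Of 8 members tested, 0 passed an adjusted p of 0.05 (edgeR's quasi-likelihood test), beside a background of 0.00706% of 14163 genes (1 gene, Ces1c). The members with an unadjusted p under 0.05 numbered 1 of 8, compared with 2.49% of all genes. That member was Eda2r, whose liver response exceeded its kidney response by 2.27 on the log2 scale (SE 1.07, unadjusted p = 0.0456, adjusted p = 1.00). In liver Eda2r passed the filter through its 7c livers, where it was high, so that count and p support nothing about the members. The difference for Gdf15 was 0.72 (SE 0.39, unadjusted p = 0.0762) and that for Cdkn1a was 0.70 (SE 0.61, unadjusted p = 0.260). Without 7c replicate 2 the Cdkn1a difference was 0.038, and with the replicate block it was 0.28. With 1 mouse left out the Eda2r difference ranged from 1.77 to 4.20, the highest without vehicle replicate 2.

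Levels of the members in liver and kidney were compared in the vehicle mice. There, 5 of the 9 members tested passed an adjusted p of 0.05 (edgeR's quasi-likelihood test), beside a background of 53.4% of 17245 genes, so the members' share is near that of all genes. The count with an unadjusted p under 0.05 was also 5, beside 58.4% of all genes. Of the 5, 4 were lower in liver than in kidney (background 27.7%) and 1 was higher (25.7%). The replicate numbers of liver and kidney are not stated to be the same mouse, and the test treats the libraries as separate. With the replicate number as a block, 4 members passed in place of 5, Cdkn2b being the one lost. Cdkn2b, at 4 to 6 counts in the vehicle livers and 26 to 38 in the vehicle kidneys, also entered the fit only through the kidneys, where it was high, so its place among the 5 and among the 4 is no support.

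Sesn2 was 1.71 ± 0.44 RPKM (SD, n = 4) in vehicle liver and 14.4 ± 1.91 RPKM (n = 4) in vehicle kidney, and the libraries did not overlap. Its log2 fold change, liver over kidney, was -3.04 (SE 0.20, adjusted p = 2.28e-07). Ccng1 was 8.46 ± 0.21 RPKM in liver and 36.9 ± 7.58 RPKM in kidney (log2 fold change -2.09, SE 0.16, adjusted p = 1.03e-06). Both genes were lower in every vehicle liver than in any vehicle kidney, and Ccng1 shares sequence with Nudcd2 on the other strand, whose reads may be among its counts.

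Phlda3 was 0.411 ± 0.210 RPKM in liver and 2.57 ± 0.656 RPKM in kidney (log2 fold change -2.62, SE 0.40, adjusted p = 2.12e-04). Cdkn2b was 0.0602 ± 0.0130 RPKM in liver and 0.266 ± 0.0407 RPKM in kidney (log2 fold change -2.09, SE 0.53, adjusted p = 0.00612), and with the replicate block its log2 fold change was -2.10 with an adjusted p of 0.0578. Trp53inp1 went the other way, at 8.19 ± 1.59 RPKM in liver and 2.57 ± 1.08 RPKM in kidney (log2 fold change 1.70, SE 0.29, adjusted p = 4.68e-04).

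The remaining members did not pass the test between tissues. Cdkn1a was 1.13 ± 0.22 RPKM in liver and 1.47 ± 0.07 RPKM in kidney (log2 fold change -0.35, SE 0.20, adjusted p = 0.163). Eda2r had a log2 fold change of -1.85 (SE 1.08, adjusted p = 0.172). Without vehicle replicate 2, whose liver held 14 counts, it was -3.89 (adjusted p = 0.0205), with 0, 4 and 0 counts in the livers left, so it then entered the fit only through the kidneys and that p supports nothing. Mdm2 was 4.96 ± 0.54 RPKM in liver and 4.48 ± 0.86 RPKM in kidney, and Gdf15 was 2.39 ± 1.27 and 2.75 ± 0.93 RPKM, with log2 fold changes of 0.17 (SE 0.16) and -0.16 (SE 0.37). Cdkn2a was too low for the test.

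Per length, Ccng1 had the highest mean level of the members in every group. In vehicle kidney Ccng1 and then Sesn2 were clear of the next gene by range, and Mdm2, Gdf15, Trp53inp1 and Phlda3 came next, each overlapping its neighbor among the 4. Cdkn1a followed by mean, below every Phlda3 value but within the range of Trp53inp1 (1.30 to 3.95 RPKM). Cdkn2b was clear of Cdkn1a and of Eda2r, and Eda2r and Cdkn2a overlapped at the bottom. In vehicle liver Ccng1 and Trp53inp1 overlapped, followed by Mdm2, and then by Gdf15, Sesn2 and Cdkn1a, where Sesn2 overlapped both and every Gdf15 value was above every Cdkn1a value. Phlda3, Cdkn2a, Cdkn2b and Eda2r came last, at 0.411 RPKM or less on average. Of these, Cdkn2a (0 to 0.892 RPKM) overlapped the other 3 and Cdkn1a, Cdkn2b overlapped Eda2r, and every Phlda3 value was above those of Cdkn2b and Eda2r.

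**Figure D4:**
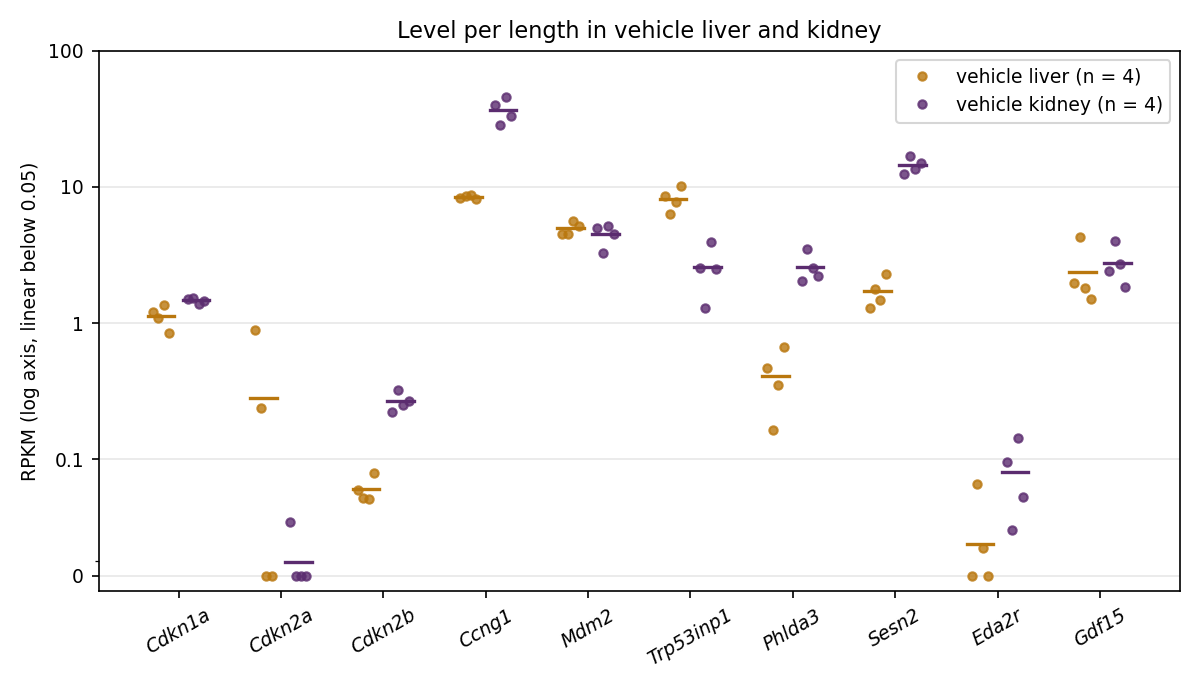
RPKM of each member in vehicle liver (orange, n = 4) and vehicle kidney (purple, n = 4), on a log axis that is linear below 0.05. Points are libraries and bars are means. Sesn2, Ccng1, Phlda3 and Cdkn2b lie lower in liver and Trp53inp1 higher.

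The members were compared with Cdkn1a across the 10 mice of each tissue, in 15 pairs that could be tested. Of the 15, 0 passed after adjustment, with a lowest adjusted p of 0.430. The smallest unadjusted p was 0.0355 (permutation test) for Phlda3 in kidney, where Pearson's r was -0.663 and Spearman's rho was -0.515 (permutation p = 0.133). Without 7c replicates 3 and 5, the farthest from the median of Cdkn1a, r was -0.078, so the relation rests on those 2 kidneys. In liver all 7 correlations were below 0, from -0.523 for Sesn2 to -0.085 for Gdf15, and none had an unadjusted p under 0.05. Without 7c replicates 2 and 6, the livers farthest from the median of Cdkn1a, r was 0.0020 for Gdf15 and 0.016 for Phlda3, and that for Ccng1 moved from -0.232 to -0.674.

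The genes most like Cdkn1a over the 10 livers by Spearman's rho were Zfr (0.964), Ppil1 (0.927) and Zfp647 (0.927). In kidney they were Gm6225 (0.952), Fhad1 (0.903) and Akt1 (0.903). These are the extremes of all genes tested over 10 points from 1 tissue each and are given as a description.

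Other genes of the pathway, from a list of 28 further p53 targets, did not move past the test either. In liver 24 were tested and 0 passed, with 13 above 0 and a median log2 fold change of 0.01. Beside 3.76% of all genes, 2 had an unadjusted p under 0.05. These were Dglucy, a mitochondrial D-glutamate cyclase, at 44.3 ± 5.18 CPM in 7c (n = 6) and 32.1 ± 4.76 CPM in vehicle livers (n = 4), and the polo-like kinase Plk2, at 14.6 ± 1.12 and 18.3 ± 3.39 CPM. Btg2, an antiproliferative factor, was next by p, with a log2 fold change of -0.41 (SE 0.19). In kidney 27 were tested and 0 passed, and 1 had an unadjusted p under 0.05, beside 2.61% of all genes. It was Ptprv, a receptor phosphatase, at 0.591 ± 0.273 CPM in 7c and 1.06 ± 0.0849 CPM in vehicle mice. The next were Plk3 (log2 fold change 0.53, SE 0.25) and Plk2 (-0.34, SE 0.17).

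The regulators of p53 gave no call in either tissue. In liver 0 of 11 tested passed, and the lowest p values belonged to the ubiquitin ligase Cop1 (log2 fold change -0.28, SE 0.11, unadjusted p = 0.0222), the damage kinase Atr (-0.37, SE 0.22) and the Mdm2 relative Mdm4 (-0.21, SE 0.13). In kidney 0 of 12 passed, led by Trp53 itself (0.16, SE 0.11), Atr (-0.20, SE 0.15) and Trp63 (-0.75, SE 0.68). The number with an unadjusted p under 0.05 was 1 in liver and 0 in kidney, beside 3.76% and 2.61% of all genes.

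Genes of the senescent secretory program were also not called. In liver 0 of 20 tested passed and 0 had an unadjusted p under 0.05, and the lowest p values were those of the cytokine Il1b (log2 fold change -0.60, SE 0.55), the tetraspanin Cd9 (0.20, SE 0.19) and Igfbp4 (0.08, SE 0.08). The Il1b value ranged from -0.87 to -0.19 with 1 mouse left out and from -0.60 to -0.11 over the other alternatives. In kidney 0 of 23 passed and 1 had an unadjusted p under 0.05, beside 2.61% of all genes. It was the monocyte chemokine Ccl2, at 0.678 ± 0.194 CPM in 7c and 1.497 ± 0.986 CPM in vehicle mice. Its log2 fold change was -1.14, or -0.59 without vehicle replicate 3. The lysosomal galactosidase Glb1, whose activity is the stain for senescent cells, was 308 ± 65.8 CPM in 7c and 230 ± 82.6 CPM in vehicle kidneys (log2 fold change 0.42, SE 0.22), and the protease Mmp12 had a log2 fold change of -0.92 (SE 0.55). With 1 mouse left out Glb1 ranged from 0.27 to 0.70 and Mmp12 from -1.28 to -0.47. The cytokines Il6, Cxcl2 and Tnf were too low for the test in both tissues.

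Among other CDK inhibitors, 0 of 4 passed in liver and 0 of 5 in kidney. The lowest p in liver was that of Cdkn1b, which encodes p27, at 24.6 ± 2.56 CPM in 7c and 28.9 ± 1.64 CPM in vehicle livers (log2 fold change -0.23, SE 0.10, unadjusted p = 0.0374), ahead of Cdkn2c (0.31, SE 0.32) and Cdkn2d (0.17, SE 0.28). In kidney they were Cdkn3 (-0.997, SE 0.53), Cdkn2d (0.15, SE 0.19) and Cdkn1c (0.13, SE 0.16). Paralogs of the members gave 0 of 8 in liver, led by Mdm4, Ccni (-0.13, SE 0.09) and Trp53inp2 (0.20, SE 0.19), and 0 of 9 in kidney, led by Edar (0.35, SE 0.40), Ccni (-0.16, SE 0.19) and Sesn3 (-0.13, SE 0.16).

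Gdf15 and Sesn2 also respond to the integrated stress response, so its genes were counted. In liver 0 of 14 passed and 1 had an unadjusted p under 0.05, beside 3.76% of all genes. It was Cebpb (31.7 ± 8.22 CPM in 7c, 19.8 ± 7.00 CPM in vehicle), followed by Ddit4 (log2 fold change 0.58, SE 0.29) and Vldlr (0.62, SE 0.37). In kidney 0 of 13 passed, 10 were above 0 (8695 of all 17749 genes were), and 3 had an unadjusted p under 0.05, beside 2.61% of all genes. These were the transcription factor Atf4, at 103 ± 15.0 CPM in 7c and 79.7 ± 3.49 CPM in vehicle kidneys, its target Atf3, at 1.93 ± 0.688 and 0.851 ± 0.367 CPM, and Cebpb, at 13.02 ± 2.69 and 8.89 ± 2.27 CPM. Their log2 fold changes were 0.37 (SE 0.12), 1.17 (SE 0.37) and 0.55 (SE 0.21), each with an adjusted p of 0.997 by edgeR, and the part of the adipocyte and hepatocyte markers in them was not tested. None of the list genes named in the 7c comparisons passed under DESeq2.

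Cdkn1a is also induced by glucocorticoids and fasting, and genes of those responses were counted. In liver 0 of 13 passed, led by Fkbp5 (18.1 ± 4.15 CPM in 7c, 13.2 ± 2.26 CPM in vehicle, unadjusted p = 0.0212), Sgk1 (log2 fold change -0.51, SE 0.26) and Mt1 (-0.96, SE 0.57). In kidney 0 of 13 passed, led by Tsc22d3 (0.52, SE 0.25), G6pc1 (-0.34, SE 0.17) and Per1 (0.77, SE 0.41). Over the alternatives that kept every mouse, Tsc22d3 ranged from 0.25 to 0.53 and Per1 from 0.20 to 0.77. With 1 mouse left out G6pc1 ranged from -0.44 to -0.18. Of the 13, 0 in kidney and 1 in liver had an unadjusted p under 0.05, beside 2.61% and 3.76% of all genes.

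Between vehicle liver and vehicle kidney, 25.7% of all genes were higher in liver and 27.7% lower, and the same lists are read beside those shares. Of 27 further p53 targets tested, 9 were higher in liver and 9 lower, near the share of all genes, and the 3 most abundant were Ephx1 (log2 fold change 4.25, SE 0.22), Ei24 (1.28, SE 0.12) and Perp (1.05, SE 0.14), all higher. Of 12 regulators, 3 were higher and 1 lower, with Cop1 at 1.02 (SE 0.14) and Mdm4 at 0.63 (SE 0.14) among the higher and Usp7 not called at 0.14 (SE 0.13). Of 23 secretory genes, 6 were higher and 10 lower, including Igfbp2 (9.75, SE 0.24) and Igfbp4 (1.11, SE 0.18) in the first direction and Igfbp7 (-3.44, SE 0.19) in the second.

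Of 4 other CDK inhibitors, 3 were lower in liver, Cdkn1c (log2 fold change -3.18, SE 0.45) and Cdkn2c (-2.87, SE 0.29) among them, and Cdkn1b was not called (0.33, SE 0.19). Of 10 paralogs, 6 were higher and 2 lower, with Trp53inp2 higher (0.98, SE 0.18), the same direction as Trp53inp1, and Ccni not called (0.0066, SE 0.14). The integrated stress response genes were 6 higher and 4 lower of 14, with Atf5 at 5.69 (SE 0.17) and Atf4 at 1.07 (SE 0.12) higher and Sqstm1 not called (0.24, SE 0.13). The glucocorticoid and fasting genes were 6 higher and 1 lower of 14, led by Tat (11.9, SE 0.52) and Pck1 (1.30, SE 0.22), while G6pc1 was not called (0.61, SE 0.44). The list counts between tissues include genes too low for the 7c fit in 1 tissue, such as Tat in kidney and Edar in liver. The call of Tat is therefore no support, and the counts are a description.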

How the data were processed

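Stranded mRNA libraries were made from liver and kidney of 6 7c and 4 vehicle mice, 20 libraries in all. The authors aligned reads to GRCm39 with STAR 2.7.11b and counted them on genes with featureCounts 2.0.6, per the labels, and deposited raw counts. The annotation release, the strand setting and whether reads or read pairs were counted are not given in the sources used here. Of values from 1 to 20, 78.6% were even. Ccng1 overlaps Nudcd2 on the other strand, so without the strand setting their reads cannot be told apart. Symbols, positions and exon lengths came from GENCODE vM39, which matched 56310 of 57010 genes. The promoter window of 1 member is not reported here.

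The members and lists were chosen with earlier results of these data known. A gene entered a fit with 10 or more counts in 50% or more of its libraries, and was tested with TMM and edgeR 4.0.16 (R 4.3.3, quasi-likelihood F-test), each tissue alone for 7c, vehicle libraries alone for tissue, and all 20 for the interaction. Adjustment was Benjamini-Hochberg over all genes, with a threshold of 0.05. CPM used TMM within a tissue, and RPKM used TMM over all libraries and union exon length. Each member was also tested by a two-sided exact permutation test on log2 CPM (prior count 2). Correlations used 100000 resamples. The labels say biological replicates, so p-values within a tissue measure spread between mice. The interaction and tissue fits treated libraries as separate, so their p-values do not if liver and kidney share mice. Named from each list were the 3 genes of lowest p in the 7c comparisons and the 3 of highest mean CPM between tissues, and the 3 genes most like Cdkn1a per tissue. Genes simulated as changed by 1 or 2 on the log2 scale were recovered for 134 of 181 in liver (5 false calls among 14609 genes) and 115 of 190 in kidney (4 among 17289). For the interaction it was 113 of 190. Changes of 1 alone were recovered for 50 of 85 in liver, 51 of 107 in kidney and 34 of 93 for the interaction. Alternatives were RLE size factors, no filter, the replicate block, DESeq2 1.42.0, the likelihood ratio test, halved counts (chosen after seeing the data) and leaving out each mouse.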

Additional observations from a re-analysis of the deposited data

Results flagged for a closer look

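In 3 of 40 groups of 4 or 6 samples, 1 sample lay far from the rest by Dixon's test on CPM, which chance gives in about 1 of 20 groups. The test was not run on log2 CPM. Cdkn1a was 28.5 CPM in liver of 7c replicate 2, where the nearest 7c liver held 10.95 CPM. Gdf15 was 7.87 CPM in liver of vehicle replicate 2, where the nearest vehicle liver held 3.62 CPM. Cdkn2a was 0.0523 CPM, or 2 counts, in kidney of vehicle replicate 1, and 0 in the other 3 vehicle kidneys. For counts this low the rate of 1 in 20 need not hold.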

How the results depend on the processing

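No alternative made a member pass in the 7c comparisons or the interaction. The genes past the threshold in liver (1) became 4 without a filter, 6 in DESeq2, 7 by likelihood ratio and 0 under the replicate block. In kidney (0) they became 3, 18, 14 and, with halved counts, 2. For the interaction (1) they became 11 without a filter, 16 with DESeq2 and 0 with the block. Leaving out 1 mouse gave 0 to 2 genes in liver, 0 to 3 in kidney, 0 to 6 for the interaction and 7958 to 9328 between tissues, with 5 to 6 members there. With the block the tissue comparison called 8744 genes and 4 members, Cdkn2b being lost (adjusted p = 0.0578). Samples of the same number correlated over 0.1 in their deviations in 0 of 4 liver and 1 of 4 kidney pairs of 7c and vehicle and in 7 of 10 pairs of liver and kidney, where 8 of 10 correlated best with their own number. The liver and kidney values hint at a shared mouse, which the labels do not state. The block was kept as an alternative because not every pair was over 0.1. The exact tests with p under 0.05 numbered 1 without TMM and 0 to 3 when 1 mouse was left out.

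Signs that turned belonged to values not past the test, and the cause was not tested. In the 7c comparisons within a tissue, the block gave 7c replicates 5 and 6, which have no vehicle of their number, terms of their own. Its estimate there therefore rested on replicates 1 to 4 of each group. Under the block, Phlda3 in liver was -0.35, and in kidney Cdkn2b was -0.16 and Cdkn2d -0.046. Ccni between tissues was -0.068 with RLE, -0.032 without a filter and -0.068 with DESeq2. With total counts the exact difference of Cdkn2b in kidney was 0.0023 and the correlation of Cdkn1a with Mdm2 in liver was 0.084. With 1 mouse left out, kidney log2 fold changes ranged from -0.20 to 0.033 (Ccng1), -0.17 to 0.53 (Eda2r), -0.34 to 0.045 (Gdf15), -0.17 to 0.032 (Mdm2) and -0.49 to 0.017 (Trp53inp1). In liver they ranged from -0.044 to 0.55 (Phlda3), -0.15 to 0.13 (Sesn2) and -1.27 to 0.40 (Mt1). The interaction ranged from -0.16 to 0.030 (Mdm2), -0.49 to 0.36 (Phlda3) and -0.18 to 0.26 (Trp53inp1). Between tissues it was -0.0019 to 0.27 (Mdm2), -0.19 to 0.094 (Ccni) and -0.081 to 0.19 (Usp7). The exact differences ranged in kidney from -0.20 to 0.035 (Ccng1), -0.20 to 0.42 (Cdkn2b), -0.14 to 0.54 (Eda2r), -0.34 to 0.027 (Gdf15), -0.18 to 0.044 (Mdm2) and -0.47 to 0.066 (Trp53inp1), and in liver from -0.030 to 0.68 (Cdkn1a), -0.25 to 0.38 (Phlda3) and -0.14 to 0.13 (Sesn2). Depth limits Cdkn2a, Cdkn2b and Eda2r most, with counts of 0 to 34 in liver.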
